A study of Mus musculus with 2 samples.

Results

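Among the DNase I hypersensitive sites of newborn mouse lung, a set of 3280 distal sites scored relatively higher in biological replicate 1 than in replicate 2, out of 65610 eligible distal sites (5.00%, a share fixed by the way they were chosen). DNase-seq cuts chromatin in isolated nuclei with DNase I and sequences the cut ends, so that peaks mark DNA that proteins have left open, such as promoters, enhancers and insulators. Both libraries came from lung of B6NCrl mice on postnatal day 0, with no treatment named, no sex recorded, the same donor entry and separate biosample entries. The labels do not say whether 1 animal or a pool of animals stands behind each replicate, and no other group was compared. Sequencing instruments (a HiSeq 2500 and a NextSeq 500) were listed for replicate 1, and none was named for replicate 2.

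The sites were chosen from the peak scores. Overlapping peaks of both replicates on chromosomes 1 to 19 were merged, and a site was eligible if both replicates had a peak in it, its centre lay over 1000 bp from any annotated transcription start site (TSS), and its mean score was at least 50. The score is a whole number that the authors gave each 150 bp peak. What it measures is not stated in the labels or files, it never exceeded the peak width, and values close to that width may be compressed. Eligible sites were divided into 20 bins of equal size by mean score, and in each bin the 5% with the highest log2 ratio of replicate 1 to replicate 2 formed the set, called replicate-1-leaning sites here. The 5% with the lowest ratio, again 3280 sites (5.00%), formed the opposite end.

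A lung at birth holds alveolar and airway epithelium, a dense bed of capillary endothelium, fibroblasts, smooth muscle and blood cells, and each of these opens its own distal elements. Transcription factors bind such elements at short sequence motifs. CTCF, a zinc finger protein, binds insulators and chromatin loop anchors that are largely shared between cell types. TEAD proteins carry out transcription downstream of YAP and TAZ, AP-1 dimers of FOS and JUN proteins act downstream of growth and stress signals, and basic helix-loop-helix factors bind E-boxes, short palindrome-like motifs whose central bases differ between classes of these factors. Zinc finger repressors of the SNAI and ZEB families bind 1 further class of E-box.

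Motifs that differed between both ends are shown here in strong sites that carry them, each printed 5′ to 3′ on the forward strand of the mm10 assembly (sequence from the GRCm38 reference) with the motif in capitals, on whichever strand it lies. The first 5 sites are replicate-1-leaning and the last 3 belong to the opposite end. In these labels, near and in both name the gene with the nearest protein-coding TSS at any distance, which was 151341 bp for Gm5148. The word in marks a site in an intron of any annotated gene, which need not be the named one.
TEAD, site near Heg1 (chr16:33676396-33676585): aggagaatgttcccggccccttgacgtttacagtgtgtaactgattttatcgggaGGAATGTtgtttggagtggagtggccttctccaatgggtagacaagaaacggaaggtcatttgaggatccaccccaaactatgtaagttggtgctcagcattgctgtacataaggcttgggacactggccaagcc
TEAD, site in Creb3l2 (chr6:37415136-37415285): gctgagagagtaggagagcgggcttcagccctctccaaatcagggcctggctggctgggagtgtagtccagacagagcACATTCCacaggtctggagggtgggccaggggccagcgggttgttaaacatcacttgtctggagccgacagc
E-box CAGCTG, site near Gm5148 (chr3:37875736-37875925): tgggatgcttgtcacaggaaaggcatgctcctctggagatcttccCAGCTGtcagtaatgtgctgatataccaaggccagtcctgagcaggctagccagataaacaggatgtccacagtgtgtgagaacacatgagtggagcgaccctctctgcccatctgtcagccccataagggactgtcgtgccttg
E-box CAGCTG, site near Wasf2 (chr4:133107876-133108045): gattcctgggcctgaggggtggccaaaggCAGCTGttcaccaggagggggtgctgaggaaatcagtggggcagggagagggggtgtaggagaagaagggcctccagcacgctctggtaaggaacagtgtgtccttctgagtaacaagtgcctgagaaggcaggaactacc
STAT, site in Plac8 (chr5:100567356-100567525): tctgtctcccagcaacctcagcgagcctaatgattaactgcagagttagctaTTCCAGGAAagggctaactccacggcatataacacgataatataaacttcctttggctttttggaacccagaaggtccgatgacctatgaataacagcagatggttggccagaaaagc
CTCF, site near Ccne1 (chr7:38084956-38085105): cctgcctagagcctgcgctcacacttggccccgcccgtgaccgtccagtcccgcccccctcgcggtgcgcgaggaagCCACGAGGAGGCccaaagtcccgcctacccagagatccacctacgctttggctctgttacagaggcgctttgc
CTCF, site near Ckb (chr12:111668496-111668685): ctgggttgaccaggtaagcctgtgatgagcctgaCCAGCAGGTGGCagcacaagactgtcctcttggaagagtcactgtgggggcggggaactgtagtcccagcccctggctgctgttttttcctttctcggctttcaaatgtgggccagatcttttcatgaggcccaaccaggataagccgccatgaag
E-box CACCTG, site in Ubash3b (chr9:41207576-41207725): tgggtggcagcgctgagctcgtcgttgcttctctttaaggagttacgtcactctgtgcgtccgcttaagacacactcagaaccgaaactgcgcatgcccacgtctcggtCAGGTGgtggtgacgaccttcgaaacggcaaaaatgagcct

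The TEAD motif ACATTCC appears as its reverse complement in the first of these sites. That site lies in intergenic DNA 7879 bp from the nearest protein-coding TSS, that of Heg1, which encodes a transmembrane protein of endothelium. It scored 139 in replicate 1 and 96 in replicate 2, the highest mean score of the set. In the site near Ckb, which encodes a creatine kinase, the letters of the CTCF motif contain those of the E-box CACCTG on the other strand, so that both motifs were counted there. The site near Ccne1 (cyclin E1, which drives entry into S phase) scored 141 and 130, and the site near Ckb scored 117 and 109. The last site, intronic and 45954 bp from the nearest protein-coding TSS, that of Ubash3b, held the E-box without a CTCF match. It scored 130 and 121.

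Median scores were 91 (replicate 1) and 46 (replicate 2) for the replicate-1-leaning sites. At the opposite end they were 69 and 68, and over all eligible sites 80 and 57. Their scores ran from 68 to 139 in replicate 1 and from 25 to 97 in replicate 2. Replicate 1 scored higher in all 3280 of them. The name of the opposite end is relative only: replicate 1 also scored higher in 2116 of its 3280 sites, replicate 2 in 911, and both scored equally in 253. Because replicate 1 had higher scores over most of the list (98.2% of eligible sites), the median log2 ratio was 0.97 in the set, 0.04 at the opposite end and 0.46 over all eligible sites. These values chose the sites and are given as a description.

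**Figure D1:**
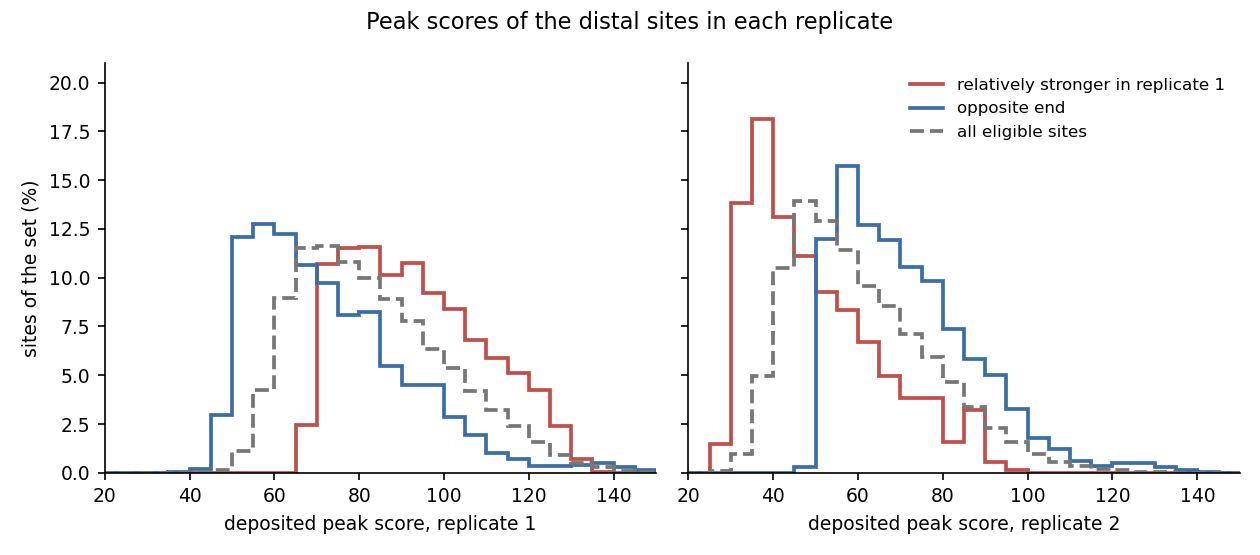
Distribution of the deposited peak score in replicate 1 (left) and replicate 2 (right), as the percentage of each set of sites per step of 5 score units, for the 3280 replicate-1-leaning sites (red), the 3280 sites of the opposite end (blue) and all 65610 eligible sites (dashed). The red line sits to the right of the others in replicate 1 (median 91) and to the left in replicate 2 (median 46), while the blue line has nearly the same place in both (medians 69 and 68).

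The limit of the set moved with the strength of the sites. In the weakest bin (mean score 50 to 51.5), the last site taken scored 68 and 33, a log2 ratio of 1.04, and the first site left out had the same scores. In the tenth bin the last site taken and the first left out both scored 88 and 47 (0.90), and in the strongest bin both scored 122 and 87 (0.49). Over all bins, 194 of the sites taken were equal in ratio to the last one of their bin, and 148 sites with that ratio were left out. With such ties taken in the reverse order, 3197 of the 3280 sites were chosen again. The most extreme ratio of the set belonged to an intergenic site 168001 bp from the TSS of Suclg2, a subunit of a citric acid cycle enzyme, with scores of 78 and 25 (log2 ratio 1.64). At the opposite end the most extreme was an exonic site 4363 bp from the TSS of Slc37a2, with scores of 35 and 70 (-1.0).

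The strongest replicate-1-leaning sites after that near Heg1 scored 137 and 97 in an intron, nearest to the TSS of Agfg2, and 134 and 95 both in an intron nearest to Tmem189 and in intergenic DNA nearest to Kcne2. The strongest site of the opposite end lay between genes, 18489 bp from the TSS of Fos, which encodes a subunit of AP-1, and scored 146 and 143. It was followed by a site 1056 bp from the TSS of Foxo3, a forkhead transcription factor, with scores of 145 and 137. Both lists thus reached into the strong sites, but the highest mean score was 117.5 in the set and 144.5 at the opposite end, inside a last bin that ran from 103 to 144.5.

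CTCF motifs set both ends apart more than any other of the 43 motifs searched for. The motif was written CCNNNAGGNGGC (N is any base) and was looked for on both strands in the 150 bp around each site's centre. It was present in 6.83% of all eligible sites, in 36 replicate-1-leaning sites (1.098%, exact binomial 95% interval 0.770 to 1.52) and in 590 sites of the opposite end (17.99%, 16.7 to 19.4). Such intervals cover counting error only, and sites of 1 library pair are not replicates of a condition. The share was higher at the opposite end in 20 of 20 mean-score bins. Another form of the motif, with fewer free bases but not contained in the first, gave 0.457% and 19.2%, against 6.74% of all eligible sites. Sites with either form made up 1.28% of the replicate-1-leaning sites (42 sites) and 27.5% of the opposite end (902 sites).

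The few replicate-1-leaning sites with a CTCF match differed in where the match lay. Its median distance from the site's centre was 31.5 bp, against 16 bp at the opposite end, where the matches were more central. The 36 sites had median scores of 93.5 and 50.5, and the 590 sites of the opposite end had 74 and 73. Around all eligible sites, the replicate 1 hotspot (a wider region that the authors called as enriched in cuts) had a median width of 367 bp at sites with the motif and 451 bp at sites without it.

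E-boxes of the CAGCTG class were the most frequent motif among the replicate-1-leaning sites. They were present in 848 of them (25.9%, 24.4 to 27.4), in 342 sites of the opposite end (10.4%, 9.40 to 11.5) and in 16.0% of all eligible sites, and the share was higher in the set in 20 of 20 bins. This is the class preferred by MYOD and by partners such as TCF12. At least 2 copies occurred in 4.02% of the set and in 0.732% of the opposite end. Of the other E-boxes, CAGATG, the class of TAL1 and TCF21, was present in 16.8% of the set, 13.4% of the opposite end and 13.3% of all eligible sites. CACGTG, the class of USF and MYC proteins, was present in 3.29%, 2.38% and 3.19%.

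The E-box CACCTG went the other way, with 5.58% (4.82 to 6.42) of the replicate-1-leaning sites, 15.3% (14.1 to 16.6) of the opposite end and 9.75% of all eligible sites. Part of this belonged to CTCF motifs, which can contain these letters. Among sites without either form of the CTCF motif, the shares were 5.47%, 12.6% and 8.46%. The difference between both ends was thus smaller without CTCF sites and kept its direction.

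TEAD motifs were present in 215 replicate-1-leaning sites (6.56%, 5.73 to 7.46), 78 sites of the opposite end (2.38%, 1.88 to 2.96) and 5.50% of all eligible sites. The share was higher in the set than at the opposite end in 19 of 20 bins. In several bins it was lower in the set than in all eligible sites. In the weakest bin, for example, it was 3.66% at both ends and 5.09% in all. In the bin of the strongest sites, where the opposite end reached higher mean scores, it was 15.9% in the set, 1.22% at the opposite end and 7.32% in all.

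AP-1 motifs (TGAGTCA) were also more frequent in the set than at the opposite end. They were present in 330 replicate-1-leaning sites (10.1%, 9.05 to 11.1), 157 sites of the opposite end (4.79%, 4.08 to 5.57) and 8.81% of all eligible sites. The share was higher in the set than at the opposite end in 20 of 20 bins, but in several it was lower than in all eligible sites. At least 1 of the TEAD, CAGCTG and AP-1 motifs occurred in 37.9% of the set, 16.4% of the opposite end and 27.8% of all eligible sites. A CAGCTG and a TEAD motif stood together in 1.52%, 0.244% and 0.790% of these sites.

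**Figure D2:**
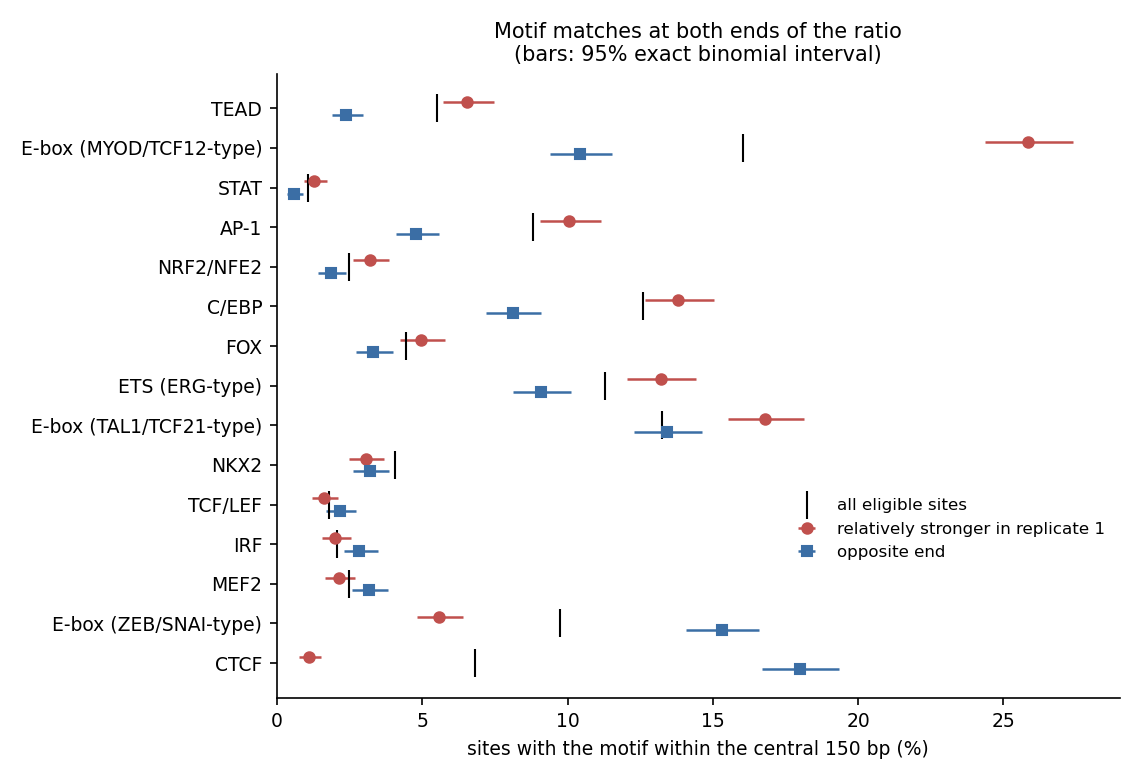
Percentage of sites with each motif in the central 150 bp, for replicate-1-leaning sites (red circles) and the opposite end (blue squares) with exact binomial 95% intervals, and for all eligible sites (black ticks), ordered by the ratio of both ends. CTCF lies far to the right for the opposite end (17.99% against 1.098%), and the E-box CAGCTG (MYOD/TCF12-type) far to the right for the replicate-1-leaning sites (25.9% against 10.4%).

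STAT motifs (TTCCNGGAA), bound by factors downstream of cytokine receptors, were present in 1.28% of the set, 0.579% of the opposite end and 1.07% of all eligible sites. For motifs of NRF2 and NFE2 (TGACNNNGCA) these shares were 3.20%, 1.86% and 2.47%. C/EBP motifs (TTGCNNAA) were present in 13.8%, 8.11% and 12.6%. ETS motifs of the type bound by ERG (CAGGAAG), a regulator of endothelium, were present in 13.2%, 9.09% and 11.3%. Forkhead motifs (TGTTTAC) were present in 4.97%, 3.32% and 4.45%. Motifs of NKX2 proteins (TCAAGTG), among them the lung epithelial regulator NKX2-1, had nearly equal shares of 3.05% and 3.20%, both under the 4.07% of all eligible sites. Motifs of MEF2 (CTANNNNTAG), IRF (GAAANNGAAA) and TCF/LEF (ATCAAAG) also had higher shares at the opposite end. They were present in 3.17%, 2.84% and 2.17% of sites there, and in 2.13%, 2.01% and 1.62% of the set. Over all eligible sites the shares were 2.49%, 2.07% and 1.79%. For the STAT, C/EBP, ETS, forkhead, MEF2, IRF and TCF/LEF motifs, the set lay closer to all eligible sites than the opposite end did. Of 31 motifs present in at least 1% of eligible sites, 21 had the higher share in the set and 9 at the opposite end.

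The motif content changed gradually along the ratio. When each bin was cut into 20 classes by ratio, the share of sites with a CTCF motif was 17.99% in the lowest class, 11.1% in class 5, 6.01% in class 10, 2.07% in class 15 and 1.098% in the highest. The CAGCTG share was 10.5% in the lowest class, 15.5% in class 10 and 25.9% in the highest, against 21.7% in class 19. TEAD and AP-1 shares went from 2.37% and 4.77% in class 1 to 5.15% and 10.3% in class 8. Above that, TEAD lay between 5.34% and 7.77% and AP-1 between 8.66% and 10.8%.

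**Figure D3:**
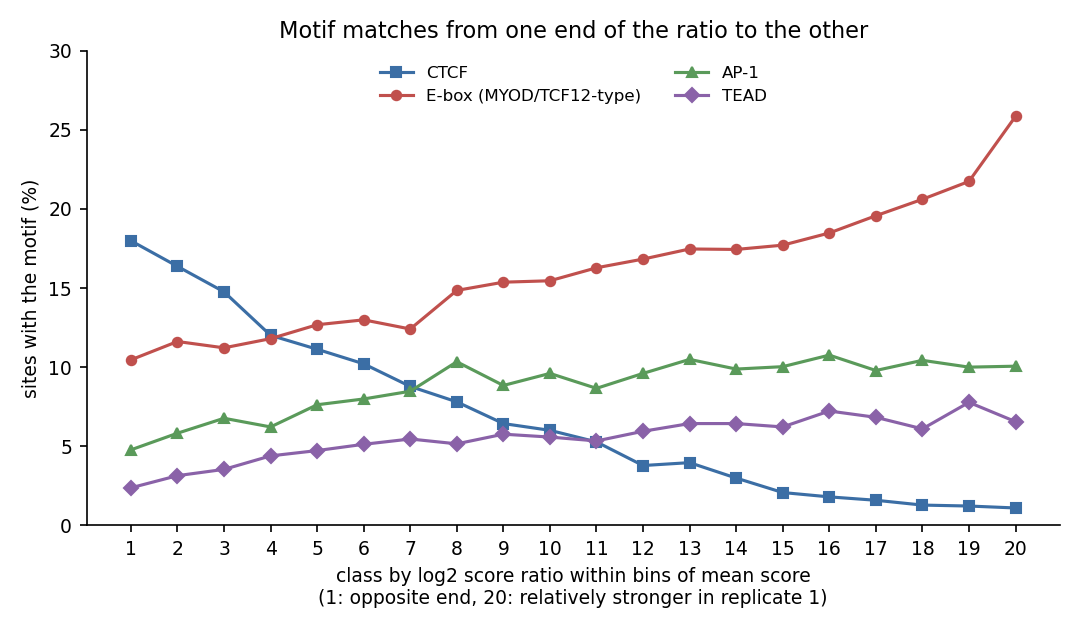
Percentage of eligible sites with a CTCF (blue), CAGCTG E-box (red), AP-1 (green) or TEAD (purple) motif in 20 classes of the log2 score ratio taken within bins of mean score, from the opposite end (class 1) to the replicate-1-leaning sites (class 20). CTCF goes from 17.99% to 1.098% and the E-box from 10.5% to 25.9%, with no step at the limits of the set apart from the last rise of the E-box.

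In sites that the rule did not rank, median log2 ratios with and without a motif were compared, without matching by mean score. Among eligible sites the median ratio was 0.55 in the weakest bin and 0.296 in the strongest. The parts of motif and of site strength in these medians thus cannot be told apart. Weak distal sites, with a mean score of 30 to under 50, numbered 39610, and their median log2 ratio was 0.38 with a CTCF motif and 0.54 without. The 819 distal sites on chromosome X gave 0.32 (58 sites with the motif) and 0.51, close to the 0.29 and 0.47 of the eligible sites. In 30198 sites within 1000 bp of a TSS the medians were 0.28 and 0.34, a smaller gap in the same direction. For the E-box CAGCTG the medians with and without the motif were 0.59 and 0.53 in weak sites, 0.40 and 0.33 near a TSS and 0.54 and 0.50 on chromosome X. TEAD motifs gave 0.57 and 0.53, 0.41 and 0.33, and 0.57 and 0.50. For AP-1 the order held in weak sites (0.56 and 0.53) and near a TSS (0.42 and 0.33) but was turned on chromosome X, where the 75 sites with the motif had 0.47 and the others 0.51.

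**Figure D4:**
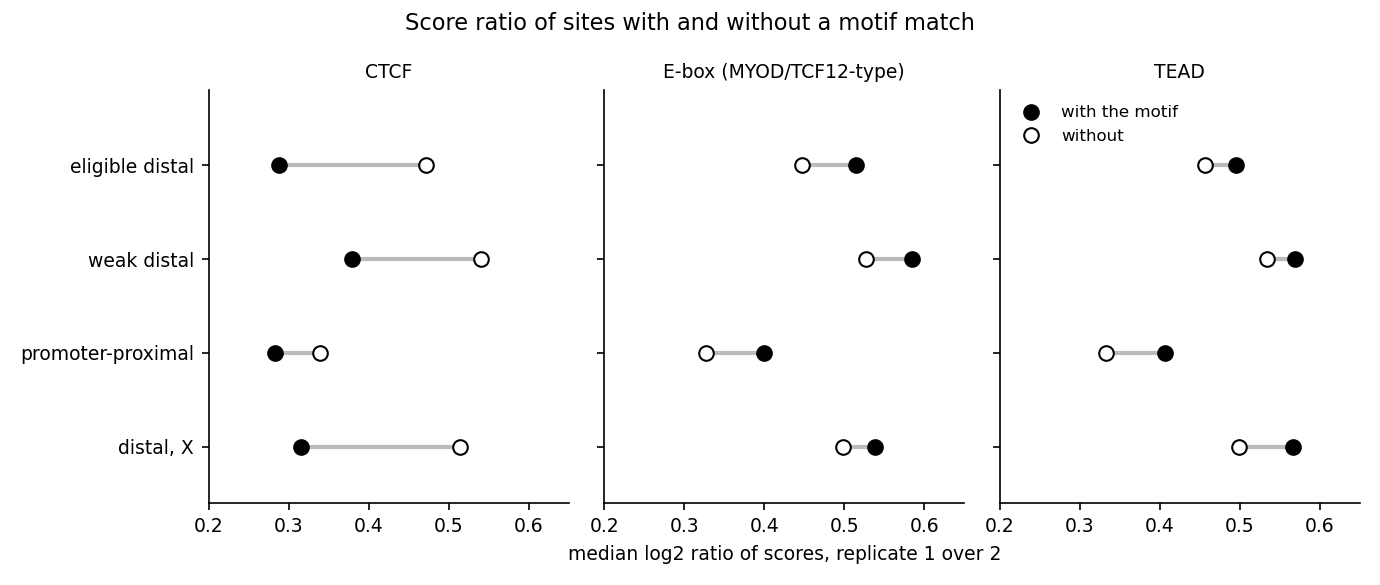
Median log2 ratio of replicate 1 to replicate 2 scores for sites with (filled) and without (open) a CTCF, CAGCTG E-box (MYOD/TCF12-type) or TEAD motif, in the eligible distal sites and in 3 groups that the rule left unranked. Sites with and without a motif were not matched by mean score. The filled point lies left of the open one for CTCF and right of it for both other motifs in all 4 groups; the axis starts at 0.2, since no bar is drawn.

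Distal sites found in 1 library alone were not ranked either. Those with a peak in replicate 1 only (88077) held a CTCF motif in 1.07%, and those of replicate 2 only (15349) in 1.31%. The CAGCTG shares were 13.7% and 11.8%, and the TEAD shares 4.31% and 3.37%. Such sites were weak, with median scores of 36 and 25. Both CTCF shares were under the 3.07% of weak distal sites shared by the replicates.

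Base composition and position differed a little. The median GC content of the central 150 bp was 50.7% in the set, 48.7% at the opposite end and 49.3% in all eligible sites. When sites were ranked within 5 parts of equal GC content in every bin, both ends had a median of 49.3%, and the shares were 1.18% and 18.5% for CTCF and 24.9% and 10.7% for CAGCTG. At least 1 CpG dinucleotide occurred in 85.7% of the set, 84.9% of the opposite end and 84.9% of all eligible sites. Introns held 53.5% of the set, 49.0% of the opposite end and 53.5% of all eligible sites. Intergenic DNA held 40.6%, 44.5% and 40.75%, and exons 5.92%, 6.52% and 5.74%. In these shares the set lay close to all eligible sites. The median distance to the nearest TSS was 10826 bp in the set, 8303 bp at the opposite end and 9987 bp in all eligible sites, and that to a protein-coding TSS was 20504, 14391 and 17260 bp.

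Hotspots came from the same libraries and the same contrast, so they only describe the set. The hotspot of replicate 1 around a replicate-1-leaning site had a median width of 515 bp, against 357 bp at the opposite end and 443 bp in all eligible sites, while the widths in replicate 2 were 331, 323 and 329 bp. The replicate 2 hotspot reached the ceiling of the deposited significance value, a −log10 q-value of 100, in 39.3% of the set, 80.5% of the opposite end and 59.0% of all eligible sites. In replicate 1 these shares were 93.9%, 83.5% and 88.5%. The set thus combined wide replicate 1 hotspots with replicate 2 hotspots of ordinary width.

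Within 10 kb, 75.3% of them had another eligible site, against 61.3% at the opposite end and 70.3% in all. The nearest such neighbour belonged to the set in 201 cases (8.14%, 7.09 to 9.29) and to the opposite end in 67 (2.71%). From the opposite end the nearest neighbour belonged to the same end in 138 cases (6.86%, 5.80 to 8.06) and to the replicate-1-leaning sites in 63 (3.13%). For all eligible sites the nearest neighbour belonged to the set in 5.36% and to the opposite end in 4.14%. By chromosome, the set took between 3.95% (chromosome 6) and 6.18% (chromosome 14) of the eligible sites.

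Each site was next assigned to the protein-coding gene with the nearest TSS, at any distance, and 26 lists of genes that mark cell types or cell states (462 genes) were read. The replicate-1-leaning sites fell to 2377 genes and the opposite end to 2724, of 12697 with any eligible site, and 661 genes had sites of both ends. Beside the 5.00% taken at each end, the list of endothelial genes, blood vessel and lymphatic together, stood out with 29 of its 222 eligible sites in the set (13.1%, 8.93 to 18.2) and 6 at the opposite end (2.70%, 0.998 to 5.79). The 29 sites belonged to 17 genes. Without sites that hold the first form of the CTCF motif the numbers were 29 and 5 of 212. In whole tissue, fewer cells of a type and less accessible chromatin in each cell cannot be told apart.

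Cdh5 encodes VE-cadherin, the adhesion molecule of endothelial junctions, and had 27 eligible sites, of which 3 leaned to replicate 1 and 1 belonged to the opposite end. The 3 sites scored 110 and 66, 85 and 44, and 71 and 34, and lay 276084 to 468914 bp from the TSS, so that the assignment rests on distance alone. The peak at the Cdh5 promoter itself scored 86 and 52. Cd93, a C-type lectin-like receptor of endothelium and myeloid cells, was in none of the lists. It was named for its many sites in the set, so its count is no separate evidence on endothelial genes. Of its 22 sites, 6 were in the set (2 without mean-score bins) and 0 at the opposite end. All 6 were intergenic, 37038 to 88648 bp from its TSS, with scores of 99 and 55, 92 and 50, 90 and 48, 97 and 52, 91 and 49, and 85 and 40. Their log2 ratios lay between 0.85 and 1.09. An E-box CAGCTG was present in 4 of the 22 Cd93 sites and the CTCF motif in 0.

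Pecam1, another junction protein, had 14 eligible sites and 0 at either end. Vwf, which encodes von Willebrand factor, had 2 of 12 sites at the opposite end and 0 in the set, with scores of 78 and 75 and of 69 and 67. Flt4, the receptor of lymphatic growth factor, had 1 of 2 sites in the set, and its promoter scored 78 and 37. Endothelial genes thus did not all lean the same way. At promoters, read as a description of the same contrast, 30 genes of both lists had a shared site, with median scores of 90 and 60.5. Their median log2 ratio was 0.51, against 0.24 for 14548 protein-coding genes. Ranked against promoters of like mean score, they stood at a median percentile of 69.8, and 20 of 30 were above 50. This was not particular to endothelium. Promoters of epithelial genes stood at 60.5 (40 of 67 above 50) and those of mesenchymal genes at 59.3 (30 of 55). Blood genes stood at 42.0 (17 of 42).

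Mesenchymal genes had 34 of 418 eligible sites in the set (8.13%, 5.70 to 11.2) and 13 at the opposite end (3.11%, 1.67 to 5.26). Most came from the fibroblast list, with 28 and 10 of 294. Smooth muscle and pericyte genes had 3 and 3 of 109. At promoters the order differed. Fibroblast genes stood at a median percentile of 49.7 among promoters of like mean score, with 14 of 29 above 50. Smooth muscle and pericyte genes stood at 61.4, with 14 of 20 above 50. Col13a1, a transmembrane collagen that marks a fibroblast type of the lung, had 5 of its 18 sites in the set and 0 at the opposite end. These sites scored 112 and 57, 104 and 55, 96 and 52, 110 and 64, and 96 and 48, and the promoter scored 99 and 59. The site 3330 bp from the nearest TSS, with scores of 96 and 52, held a TEAD motif and a CAGCTG E-box. Col1a1, the main chain of type I collagen, had 3 of 23 sites in the set, with scores of 71 and 33, 104 and 63, and 91 and 41, and 0 at the opposite end. Npnt, an extracellular matrix ligand of an integrin, had 3 and 2 of 12.

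Distal sites of epithelial genes were placed differently, with 20 of 513 in the set (3.899%, 2.40 to 5.96) and 24 at the opposite end (4.68%, 3.02 to 6.88). Alveolar type 2 cells, which make surfactant, had 1 of 110 sites in the set (0.909%) and 4 at the opposite end (3.64%), and alveolar type 1 cells 9 and 8 of 129. Emp2, a membrane protein of type 1 cells, had 3 of 16 sites in the set and 2 at the opposite end. Airway genes had 3 and 7 of 71, and Scgb1a1, the secretory protein of club cells, had 1 and 2 of 15. Foxa1, a forkhead regulator of lung epithelium, had 1 of 15 sites in the set, with scores of 73 and 35, and 2 at the opposite end, with scores of 57 and 54 and of 89 and 83. The site of 73 and 35 and that of 57 and 54 were neighbours, 11060 and 11450 bp from the TSS. The lung label was also checked at promoters: Nkx2-1 scored 98 and 90, Sftpc 94 and 65, Sftpb 105 and 81 and Tbx4 85 and 71, while the liver gene Afp had no shared promoter site and Alb scored 36 and 40.

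Macrophage and monocyte genes had 12 of 89 sites in the set (13.5%, 7.17 to 22.4) and 7 at the opposite end (7.87%, 3.22 to 15.5), and these intervals overlapped. The difference was 5.62 percentage points, 0.0 with genes within 50 kb alone and -1.12 without mean-score bins. Irf8, a regulator of monocytes and dendritic cells, had 4 of 15 in the set and 0 at the opposite end, with scores of 103 and 59, 95 and 53, 97 and 54, and 77 and 32. Ptprc, the CD45 of all white blood cells, had 3 and 2 of 15, and its promoter scored 43 in both replicates. Lymphocyte genes had 2 of 67 sites in the set (2.99%, 0.364 to 10.4) and 7 at the opposite end (10.5%, 4.31 to 20.4), again with overlapping intervals, and the median percentile of their sites among sites of like mean score was 28.6, against 49.9 for all genes. Klrb1c, which encodes the natural killer cell receptor NK1.1, had 2 of 11 at the opposite end, with scores of 140 and 129 and of 77 and 72. At promoters, 1 of 10 lymphocyte genes stood above the percentile of 50. CTCF motifs of the first form were present in 10.5% of the lymphocyte sites, and 6 of their 60 sites without it belonged to the opposite end.

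Among lists of cell states, immediate early genes, which respond within minutes to growth factors and stress, had 25 of 278 sites in the set (8.99%, 5.90 to 12.99) and 7 at the opposite end (2.52%, 1.02 to 5.12). The 25 sites belonged to 14 of 23 genes. With sites over 5000 bp from a TSS alone, the shares were closer, 7.49% and 4.28%. With 1% taken per end they were 0.719% and 0.360%, and with 10% taken 16.2% and 5.04%. Klf4 and Klf6, zinc finger factors that are also expressed in endothelium, had 5 and 1 of 30 and 3 and 0 of 48. The 5 sites of Klf4 scored 86 and 43, 77 and 36, 112 and 65, 112 and 65, and 87 and 44. The first of them lay 2205 bp from the TSS, and the others 179185 to 427745 bp. The 3 sites of Klf6 lay 212941 to 515551 bp from its TSS, so that most of these assignments rest on distance alone. Egr1 went the other way, with 2 of 6 at the opposite end, scores of 105 and 97 and of 98 and 93, and a CTCF motif in both. Cell division genes had 2 of 44 sites in the set and 7 at the opposite end (15.9%, 6.64 to 30.1). Of these 7, 3 lay near Ccne1, where they scored 141 and 130, 67 and 65, and 67 and 65. Another 2 were assigned to Mki67, the proliferation antigen, from 20140 and 436320 bp away. Mki67 also had 1 site in the set, with scores of 69 and 31. Without sites that hold the first form of the CTCF motif, 4 of 40 cell division sites belonged to the opposite end, and of these the site near Cdk1 (scores of 53 and 52) held the other form.

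Glucocorticoid response genes had 6 of 149 sites in the set and 1 at the opposite end, circadian clock genes 10 and 6 of 159, and hypoxia genes 5 and 8 of 134. Genes of inflammation and interferon response had 0 of 84 sites in the set and 4 at the opposite end. Lists for tissues other than lung, from cartilage to liver, together had 13 of 356 sites (3.65%) at either end. The lists of lymphatic endothelium and mesothelium had 15 eligible sites each, with 3 in the set and 0 at the opposite end, too few for a share of any precision.

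**Figure D5:**
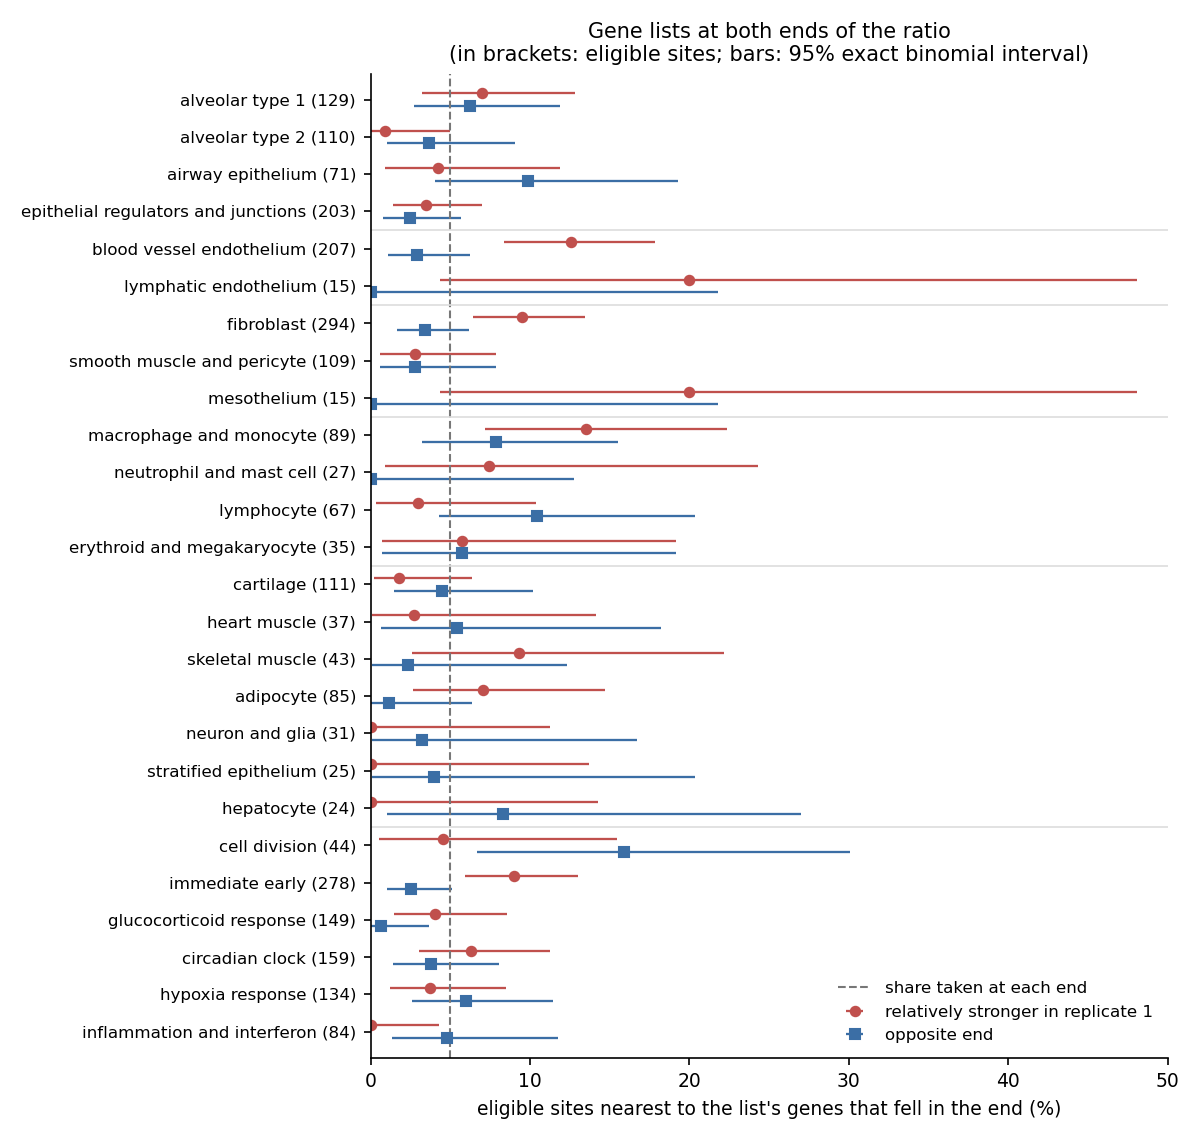
For each of 26 gene lists, the percentage of eligible sites nearest to its genes that were replicate-1-leaning (red circles) or belonged to the opposite end (blue squares), with exact binomial 95% intervals, the number of eligible sites in brackets and the share taken at each end as a dashed line. Blood vessel endothelium (12.6% against 2.90%), fibroblast (9.52% against 3.40%) and immediate early genes (8.99% against 2.52%) have red above blue, and lymphocyte and cell division genes have blue above red.

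Several genes with many replicate-1-leaning sites were outside these lists. Among them was Zmiz1, a transcriptional coregulator, which had 8 of its 65 eligible sites in the set and 1 at the opposite end, all 8 in introns, the strongest with scores of 117 and 74. Of the 8, 1 held a CTCF motif, with scores of 99 and 54. Trib1, a pseudokinase that directs the degradation of C/EBPα, had 6 of 50 in the set (1 without mean-score bins) and 0 at the opposite end. The 6 sites had scores from 100 and 58 to 117 and 77.

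Rras2, a small GTPase of the RAS family, had 5 of 23 in the set, and Afap1, an actin filament binding protein, 5 of 24, each with 0 at the opposite end. Spsb1, an adaptor of a ubiquitin ligase, had 5 of 26 and 0, and Fam49a 5 and 2 of 29. Their promoters scored 128 and 124 at Spsb1, 129 and 116 at Afap1 and 104 and 69 at Fam49a.

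At the opposite end, Slc38a1, a glutamine transporter, had 5 of 16 sites and 0 in the set. These scored 95 and 95, 65 and 71, 61 and 68, 70 and 68, and 102 and 99, and its promoter scored 110 and 65. Rabgap1l had 5 of 17 and 0, of which 2 held a CTCF motif, with scores of 55 and 63 and of 49 and 53. Rgs6, a regulator of G protein signalling, had 5 of 20 and 1, and none of these 6 sites held a CTCF motif, and its promoter scored 79 and 48. Ppfibp2, a liprin, had 4 of only 6 sites there, with scores of 57 and 60, 114 and 114, 56 and 68, and 66 and 63. Cavin4, a caveolar protein of muscle, had 4 of 10. Smad7, an inhibitor of TGF-beta signalling, and Uaca had sites at both ends, with 4 in the set and 5 at the opposite end of 40 and of 22.

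The replicates differed in the number of peaks (276480 and 188498 on chromosomes 1 to 19, X and Y) and in the score of the median peak (50 and 43), and the labels and files give no sequencing depth. With 2 libraries, each site has 1 ratio and no error from replication, and the contrast between both ends is a contrast between these libraries. The part of depth, of the sequencing instruments and of cell composition in the difference was not tested.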

How the data were processed

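DNase-seq peaks and hotspots of 2 replicates in 1 group were used as deposited. According to notes that the authors deposited, both were called library by library on mm10 alignments. Aligner, caller and versions are not stated in the labels or files. The deposited score (column 7 of the peaks) is a whole number of unknown scale. The deposited hotspot significance is a −log10 q-value by its format, from 1.30 to a ceiling of 100. Depth is unknown, so values were not scaled by it.

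Sites were merged and ranked as the report describes, with Python 3.11.15, pandas 2.3.3 and numpy 2.4.6, and ties of the ratio were taken in genome order. The GRCm38 sequence and GENCODE mouse release 21 gave bases and TSSs. A site belonged to the nearest protein-coding TSS, and a gene's promoter score was that of a shared site within 500 bp of its TSS. Motifs were exact letter matches on both strands, which show neither binding nor its absence. Ranking was tested on simulated data. Intervals are exact binomial (scipy 1.17.1).

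The set, the 26 gene lists and the motifs were chosen with earlier results of these data known. No p-value was computed, since members share 1 pair of libraries. Genes named are, per end, the 10 with the most sites and, per list, the 2 with the most eligible sites and the gene with the most sites at each end (at least 2); some genes that this rule selects are not reported here. Sites named are the 5 strongest and 5 most extreme per end, shown in part. Motifs described in full are the 5 per end with the largest ratio of shares among those in at least 1% of eligible sites, and sequences come from the 2 strongest sites for each of the first 3, shown in part. Motifs of C/EBP, ETS, forkhead and NKX2 proteins, the remaining E-boxes and the other CTCF form were added after their values were seen. The alternatives tried changed ranking, bins, score, share taken, limits, overlap, hotspots, gene distance and sequence window.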

Additional observations from a re-analysis of the deposited data

Results flagged for a closer look

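Peaks on chromosome Y lay outside the sites that were ranked, and sex was not recorded. Replicate 1 had 84 peaks there and replicate 2 had 70, of which 42 merged sites were shared.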

How the results depend on the processing

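Results are differences between the replicate-1-leaning sites and the opposite end, in percentage points, and were recomputed under 15 alternatives. Of 142 values for the main results, 114 moved by less than the counting error (the reach of the 95% interval on either side), 28 moved more, and 128 kept their sign. Those that did not keep it were all of blood genes, epithelial genes, CpG or GC content. The signs of the CTCF (-16.9 points), CAGCTG (15.4), TEAD (4.18), AP-1 (5.27), endothelial (10.4) and mesenchymal (5.02) differences held in all of them. With a minimum mean score of 30, CTCF was -12.49, CAGCTG 12.49, AP-1 3.783, intergenic share -0.3992 and GC content 0.6667. With a minimum of 80, CTCF was -21.49, TEAD 5.957, AP-1 8.085, CpG -1.809, intergenic share -9.043, GC 0.0 and blood genes 9.231. With 1% taken per end, CAGCTG was 18.64, CpG 3.636, intergenic share -6.364 and endothelial genes 2.703. With 10% taken, CAGCTG was 12.76, GC 0.6667 and mesenchymal genes 8.852. Without mean-score bins, CAGCTG was 12.59 and GC 0.6667. With 300 bp of sequence, CAGCTG was 19.3, AP-1 6.951 and GC 2.667. GC was 0.0 within parts of equal GC, and 1.333 over 5000 bp from a TSS or without CTCF sites. The other CTCF form, chosen after seeing the data, gave -18.75. The cause of these shifts was not tested, apart from the parts of equal GC, which remove the GC difference by construction, and the share taken, which sets the size of both ends. Of the 3280 sites, 3012 were chosen again without CTCF sites, 3012 within GC parts and 3205 by difference of ranks. Of the values for gene lists, 323 moved by less than the counting error and 15 by more. For single genes, with few sites each, these numbers were 190 and 70.

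Neither replicate was left out, since the ratio needs both. No paired analysis was possible because the 2 replicates form 1 group. The score has no stated scale and no depth, so that it can only rank sites. Sites are not replicates, and neighbouring sites and sites of 1 gene are not independent.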
